A study of Mus musculus with 12 samples.

Results

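The blood vessels of the mouse left ventricle were followed through 35 genes that mark endothelial cells, the cells that line vessels. The members were all probe sets of an Affymetrix whole-genome mouse array whose platform symbol was in the list, 61 of 45101 probe sets. They covered 34 of the 35 genes, since Ly6c1, a surface protein of capillary endothelium, was read only by a probe set with more than 1 symbol and has no value here. All 34 genes were bright enough to be tested, among 11166 genes tested in all, as were all 8 cardiomyocyte markers, so the arrays carried both the label's tissue and its endothelium.

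The series looked for heart genes induced through ATF6, which switches on the response to misfolded protein in the endoplasmic reticulum. Arrays came from 12 male C57BL/6 mice, 1 heart an array, at about 30 weeks of age by the labels. TG tamoxifen mice carried the ATF6-MER transgene, ATF6 fused to a mutant mouse estrogen receptor domain that tamoxifen activates, and were given tamoxifen. TG vehicle mice carried the same transgene and were given vehicle. NTG tamoxifen and NTG vehicle mice were non-transgenic littermates given tamoxifen or vehicle, and each of the 4 groups had 3 mice. The sources used here do not state the promoter of the transgene, the tamoxifen dose or the time on drug.

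The labels or the data put 3 arrays in doubt. TG vehicle 3 is vehicle by its title but tamoxifen in its treatment field, and TG tamoxifen 1 has an age of 40 weeks. The array labelled NTG tamoxifen 1 read 17.72 log2 units for Esr1, the receptor gene whose domain is in the transgene, inside the range of the 6 TG arrays (16.66 to 18.25) and above the other NTG arrays (10.88 or less). It also read 18.05 for the stress-induced chaperone gene Hspa5, against 15.65 and 15.49 on NTG tamoxifen 2 and 3. For Hspa5, TG vehicle 3 read 15.94, between TG vehicle 2 (15.76) and TG vehicle 1 (16.39). TG tamoxifen 1 read 18.47, and the 3 TG tamoxifen arrays ran from 18.37 to 18.47. Array medians ran from 648 to 834 intensity units. The ratio of 3' to 5' beta-actin signal, a measure of RNA integrity, lay between 1.75 and 1.88 on TG tamoxifen arrays, between 1.32 and 1.68 on TG vehicle arrays, at 1.78 to 1.97 in NTG tamoxifen and 2.12 to 2.43 in NTG vehicle.

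Endothelial cells keep their identity through transcription factors of the ETS, SOX and GATA families, which bind regulatory DNA of genes such as Kdr, Tie1 and Cdh5. Growth factors of the VEGF and angiopoietin families, made largely by neighbouring cells, act on receptor kinases at the endothelial surface, while cadherin and claudin junctions seal the vessel wall. In the heart, a dense capillary bed also takes up fatty acids for the cardiomyocytes. Left ventricle was measured whole, so fewer endothelial cells and less of a transcript per endothelial cell cannot be told apart.

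Promoters show what these genes share in sequence. RefSeq promoters of build GRCm38.p6 were at hand for 17 of the 35 genes, as 23 windows of 250 bases that end at a transcript start. The ETS motif AGGAAG was searched on both strands (CTTCCT on the other). It was in 12 of 23 windows (52.2%), of 11 genes, against 29.5% of 32851 windows of all genes. Other and shorter forms of the ETS motif were not searched, counted or marked. The ATF6 motif TGACGTG was in 0 of 23 windows against 1.65% of all, and the endoplasmic reticulum stress element (CCAAT, then 9 bases of any kind, then CCACG) in 0 of 23 against 0.113%. The 5 windows below belong to genes described in this section, 4 with AGGAAG or CTTCCT and Kdr with neither. Each runs 5' to 3' on the strand of its gene, with AGGAAG or CTTCCT in capitals.
Tie1: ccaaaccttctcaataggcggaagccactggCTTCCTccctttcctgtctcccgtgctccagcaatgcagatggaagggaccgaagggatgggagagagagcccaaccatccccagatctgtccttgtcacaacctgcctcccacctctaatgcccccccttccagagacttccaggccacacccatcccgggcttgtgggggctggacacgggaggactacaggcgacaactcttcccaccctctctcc
Emcn: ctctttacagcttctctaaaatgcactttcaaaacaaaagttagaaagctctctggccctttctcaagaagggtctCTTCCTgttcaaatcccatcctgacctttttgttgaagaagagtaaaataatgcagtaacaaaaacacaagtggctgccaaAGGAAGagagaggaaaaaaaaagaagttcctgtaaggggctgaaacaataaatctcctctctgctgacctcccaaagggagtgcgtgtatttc
Robo4: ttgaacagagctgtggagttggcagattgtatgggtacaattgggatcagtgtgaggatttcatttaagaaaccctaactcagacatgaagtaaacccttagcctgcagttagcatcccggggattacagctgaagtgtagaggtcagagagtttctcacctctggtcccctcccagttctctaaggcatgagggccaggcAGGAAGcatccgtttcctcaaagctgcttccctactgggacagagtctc
Calcrl: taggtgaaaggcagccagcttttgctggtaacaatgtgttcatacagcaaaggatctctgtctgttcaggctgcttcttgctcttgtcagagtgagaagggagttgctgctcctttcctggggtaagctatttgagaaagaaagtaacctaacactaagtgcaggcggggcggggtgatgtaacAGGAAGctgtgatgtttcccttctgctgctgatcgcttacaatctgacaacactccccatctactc
Kdr: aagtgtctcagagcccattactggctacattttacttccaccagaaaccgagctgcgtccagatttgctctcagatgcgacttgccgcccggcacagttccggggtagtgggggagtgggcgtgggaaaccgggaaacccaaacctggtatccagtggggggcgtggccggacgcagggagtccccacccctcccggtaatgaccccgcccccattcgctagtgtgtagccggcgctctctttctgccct

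These windows lie at chr4:118489850-118490099 (minus strand) for Tie1, chr3:137340828-137341077 (plus) for Emcn, chr9:37401722-37401971 (plus) for Robo4, chr2:84425267-84425516 (minus) for Calcrl and chr5:75978456-75978705 (minus) for Kdr. The marked motif starts 219 bases before the transcript start of Tie1, 174 and 93 before that of Emcn, 49 before that of Robo4 and 66 before that of Calcrl. Tie1, Emcn and Robo4 were lower in TG tamoxifen than in TG vehicle, as were Exoc3l2, with this motif, and Kdr, whose window lacks this form of it. The other genes with this motif and a level here, Calcrl, Cd34, Egfl7, Eng, Erg and Flt1, were not called in that comparison. A match is a run of letters and not a measured binding site, and no match says nothing about binding of the factor.

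In transgenic hearts, tamoxifen went with lower levels of 10 endothelial genes and higher levels of none. The 10 span receptors (Kdr, Tie1, Ramp2, Robo4), the nitric oxide synthase Nos3, surface and junction proteins (Cdh5, Emcn, Icam2, Gpihbp1) and Exoc3l2. They make up 29.4% of the 34, where 14.4% of all genes tested were lower and 10.4% higher (limma, Benjamini-Hochberg adjusted over 11166 genes, threshold 0.05). The change was negative for 30 of the 34, with a median of -0.36 log2 units against -0.07 over all genes tested. With median centring these medians were -0.19 and 0.03. Without Exoc3l2, whose direction is uncertain, 9 of 33 genes (27.3%) were lower. Without a call in the higher direction, Klf2 (0.53 ± 0.24) was the positive member among the 13 with an unadjusted p under 0.05. The 3 TG tamoxifen arrays lay below all 3 TG vehicle arrays for 15 genes and above them for 1, Klf2, where 24.4% and 19.8% of all genes were separated in these directions.

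**Figure D1:**
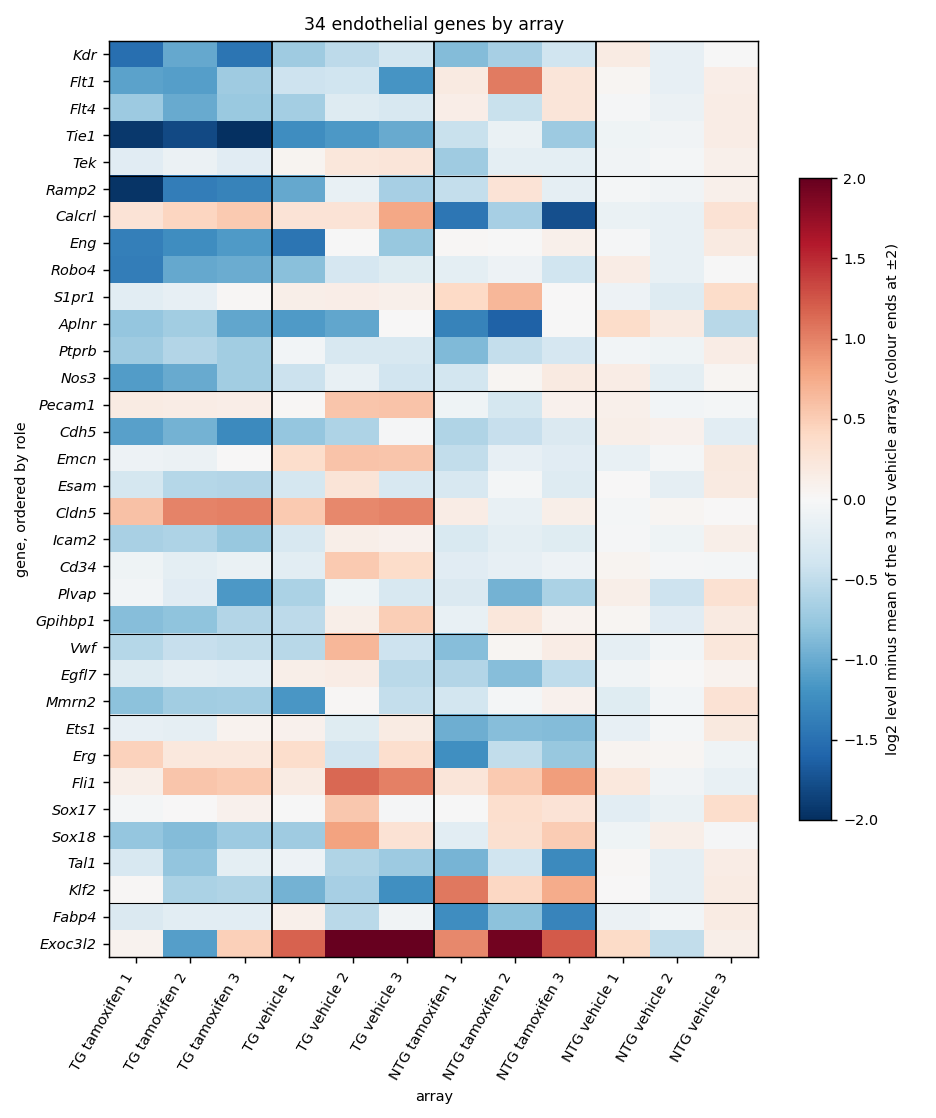
Level of each of the 34 endothelial genes (rows, grouped by role) on each of the 12 arrays (columns), as log2 level minus the mean of the 3 NTG vehicle arrays, with blue for lower and red for higher. Values of Exoc3l2 and, on TG tamoxifen 3, of Tie1 (-2.24) pass the ends of the colour scale. Kdr, Tie1, Ramp2, Robo4 and Nos3 are bluest on the 3 TG tamoxifen arrays, while Calcrl, Ets1, Erg and Fabp4 are bluest on the 3 NTG tamoxifen arrays.

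That count of 10 depended on single arrays, labels and settings, and in most of these the share of all genes called was smaller too. It was 4 (11.8%) with median centring, where 24.4% of all genes changed, 4 with no filter on dim genes (8.82% of all genes), and 5 (14.7%) from a fit of only the 2 groups (21.4% of all genes). It was 3 (8.82%) without TG tamoxifen 1 or TG vehicle 2, where 13.1% and 15.2% of all genes changed, and 4 without TG vehicle 3 (18.5% of all genes). It was 5 without TG tamoxifen 2 or 3, with 15.6% and 16.6% of all genes, and 14 (41.2%) without TG vehicle 1, with 25.2% of all genes. Apart from the last and the fit with no filter, these shares of members lie below that of all genes. The measures are unlike, since every member called was lower and the shares of all genes count both directions. The share of all genes lower was not computed in these settings. Dropping the array labelled NTG tamoxifen 1 gave 12 (16.4% of all genes lower, 12.9% higher), adding Ptprb and Sox18. With TG vehicle 3 moved to the tamoxifen group, as its treatment field has it, 0 members and 0 of all genes passed in limma, with 2 members at an unadjusted p under 0.05. The Hspa5 level of that array, 15.94, lay between those of TG vehicle 1 and 2. Leaving out both arrays with conflicting labels also gave 0 members (6 at an unadjusted p under 0.05; 6.66% of all genes changed), and leaving out all 3 arrays in doubt gave 1, Exoc3l2 (16.1% of all genes changed). With the beta-actin ratio as a covariate, 0 members (3 at an unadjusted p under 0.05) and 5 of all genes passed, and its part in the result was not tested.

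**Figure D2:**
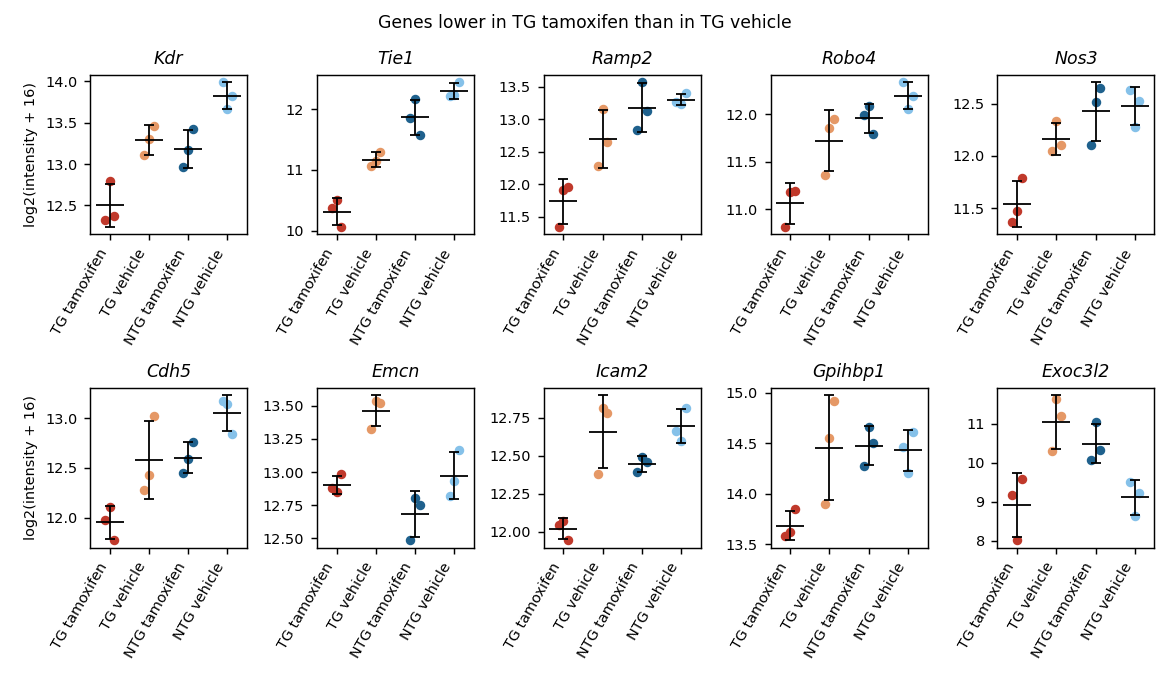
Log2 levels of the 10 genes that were lower in TG tamoxifen than in TG vehicle, 1 point an array, with the mean and SD of the 3 arrays of each group; each panel has its own axis, which does not start at 0. For all 10 the TG tamoxifen points lie below all TG vehicle points, and for 6 of them TG vehicle and NTG vehicle are apart as well, with TG vehicle lower for Kdr, Tie1, Ramp2 and Robo4 and higher for Emcn and Exoc3l2. Over all 34 members TG vehicle lay below NTG vehicle for 7 and above it for 3, where 15.4% of all genes did so in each direction.

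The VEGF and TIE receptors carried some of the clearest differences. Tie1, a receptor kinase that partners the angiopoietin receptor, read 10.37, 10.50 and 10.06 on the TG tamoxifen arrays, 11.06, 11.15 and 11.30 on TG vehicle, 11.85, 12.16 and 11.58 on NTG tamoxifen and 12.22, 12.24 and 12.45 on NTG vehicle arrays (log2 intensity, as are all levels below). The 4 groups formed separate ranges, with TG tamoxifen lowest, then TG vehicle, NTG tamoxifen and NTG vehicle. Tie1 fell by 0.86 ± 0.19 log2 units in TG tamoxifen against TG vehicle (SE, n = 3 arrays a group; adjusted p = 0.00902), to 55.1% of the TG vehicle level. It was also lower by 1.13 ± 0.19 in TG vehicle than in NTG vehicle (adjusted p = 0.019). Against NTG tamoxifen it was lower in TG tamoxifen by 1.56 ± 0.19 (adjusted p = 0.000309), a call kept in all 25 alternatives, with values from -1.70 to -1.31.

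Kdr, the main signalling receptor for VEGF-A, read 12.33, 12.80 and 12.37 on the TG tamoxifen arrays, 13.11, 13.30 and 13.47 on TG vehicle, 12.96, 13.17 and 13.43 on NTG tamoxifen and 14.00, 13.66 and 13.83 on NTG vehicle arrays. TG tamoxifen arrays were below every other array, and TG vehicle overlapped NTG tamoxifen. Kdr fell by 0.79 ± 0.19 in TG tamoxifen against TG vehicle (adjusted p = 0.0139) and by 0.68 ± 0.19 in TG tamoxifen against NTG tamoxifen (adjusted p = 0.0156). In NTG mice the tamoxifen arrays also lay below the vehicle arrays, without passing the test (-0.64 ± 0.19, adjusted p = 0.0805), and the difference between both tamoxifen effects was -0.15 ± 0.27, adjusted p = 0.741.

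Flt1, a high-affinity VEGF receptor that acts largely as a decoy, read 11.92, 11.89 and 12.28 on the TG tamoxifen arrays, 12.58, 12.59 and 11.81 on TG vehicle, 13.18, 14.03 and 13.24 on NTG tamoxifen and 13.04, 12.82 and 13.12 on NTG vehicle arrays. TG tamoxifen and TG vehicle overlapped (-0.30 ± 0.27, adjusted p = 0.453), and both lay below the 3 NTG tamoxifen arrays. In TG tamoxifen against NTG tamoxifen Flt1 fell by 1.45 ± 0.27 (adjusted p = 0.00189), to 36.5% of the level. Its other 3 probe sets were at -0.75, -0.04 and -0.14 in that comparison (adjusted p = 0.0778, 0.958 and 0.82 over all probe sets), none past the threshold. Flt4, the receptor for VEGF-C and VEGF-D, fell by 0.81 ± 0.21 in that comparison (adjusted p = 0.00967) and was -0.41 ± 0.21, adjusted p = 0.168, in TG tamoxifen against TG vehicle. Tek, the angiopoietin receptor itself, passed in no comparison, with -0.36 ± 0.17 and -0.37 ± 0.17 for the tamoxifen effects in TG and NTG.

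Adrenomedullin acts on endothelium through a receptor built from Calcrl and its accessory subunit Ramp2, and in TG tamoxifen against NTG tamoxifen these subunits were called in opposite directions. Ramp2 read 11.35, 11.92 and 11.96 on the TG tamoxifen arrays, 12.27, 13.16 and 12.65 on TG vehicle, 12.83, 13.58 and 13.12 on NTG tamoxifen and 13.27, 13.24 and 13.40 on NTG vehicle arrays. It was lowest on the TG tamoxifen arrays, fell by 0.95 ± 0.26 against TG vehicle (adjusted p = 0.024, 51.7% of the level) and by 1.43 ± 0.26 against NTG tamoxifen (adjusted p = 0.00172). Calcrl read 11.76, 11.92 and 12.00 on the TG tamoxifen arrays, 11.75, 11.75 and 12.26 on TG vehicle, 10.04, 10.82 and 9.72 on NTG tamoxifen and 11.35, 11.33 and 11.77 on NTG vehicle arrays. TG tamoxifen and TG vehicle overlapped (-0.03 ± 0.27, adjusted p = 0.952), and the 3 NTG tamoxifen arrays lay below all the others.

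Calcrl fell by 1.29 ± 0.27 in NTG tamoxifen against NTG vehicle (adjusted p = 0.0258), or by 1.22 with adjusted p = 0.0532 in the fit that omits the array labelled NTG tamoxifen 1. It was higher by 1.70 ± 0.27 in TG tamoxifen than in NTG tamoxifen (adjusted p = 0.000803; 1.62 and adjusted p = 0.00184 without that array). Ramp2 in NTG tamoxifen against NTG vehicle was -0.13 ± 0.26, adjusted p = 0.815.

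Eng, a co-receptor for TGF-beta family ligands, read 12.43, 12.55 and 12.66 on the TG tamoxifen arrays, 12.33, 13.79 and 13.04 on TG vehicle, 13.82, 13.79 and 13.89 on NTG tamoxifen and 13.77, 13.64 and 13.98 on NTG vehicle arrays. TG vehicle spread widely and overlapped TG tamoxifen, while the NTG groups were close together and above both except for 1 TG vehicle array. Eng fell by 1.29 ± 0.29 in TG tamoxifen against NTG tamoxifen (adjusted p = 0.00471, and -1.30 with adjusted p = 0.00977 without the array labelled NTG tamoxifen 1), and was -0.51 ± 0.29, adjusted p = 0.215, against TG vehicle.

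Robo4, a guidance receptor that stabilises vessels, read 10.82, 11.18 and 11.20 on the TG tamoxifen arrays, 11.36, 11.86 and 11.95 on TG vehicle, 11.99, 12.09 and 11.79 on NTG tamoxifen and 12.34, 12.05 and 12.19 on NTG vehicle arrays. TG tamoxifen arrays were below all others. The gene fell by 0.66 ± 0.20 against TG vehicle (adjusted p = 0.0314) and by 0.90 ± 0.20 against NTG tamoxifen (adjusted p = 0.00438). Nos3, the endothelial nitric oxide synthase, read 11.36, 11.47 and 11.79 on the TG tamoxifen arrays, 12.05, 12.34 and 12.10 on TG vehicle, 12.11, 12.52 and 12.65 on NTG tamoxifen and 12.63, 12.28 and 12.53 on NTG vehicle arrays. Its TG tamoxifen arrays were again below all others, with falls of 0.62 ± 0.19 (adjusted p = 0.0371) and 0.89 ± 0.19 (adjusted p = 0.00432).

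By the probe sets that stand for them, the other receptors and signal proteins were not called in any comparison. S1pr1, the receptor for sphingosine 1-phosphate, was -0.23 ± 0.21 in TG tamoxifen against TG vehicle and -0.47 ± 0.21 against NTG tamoxifen. Aplnr, the apelin receptor, read 12.91, 12.99 and 12.64 on the TG tamoxifen arrays, 12.54, 12.64 and 13.69 on TG vehicle, 12.34, 12.06 and 13.67 on NTG tamoxifen and 14.05, 13.87 and 13.12 on NTG vehicle arrays, with TG tamoxifen below NTG vehicle and every other pair of groups overlapping. Ptprb, a phosphatase that acts on Tek and on VE-cadherin, was -0.44 ± 0.18 and -0.56 ± 0.18 for tamoxifen in TG and in NTG mice, and its TG tamoxifen arrays did not overlap TG vehicle. Another probe set of Ptprb was lower in TG tamoxifen than in NTG tamoxifen, with its values given below.

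**Figure D3:**
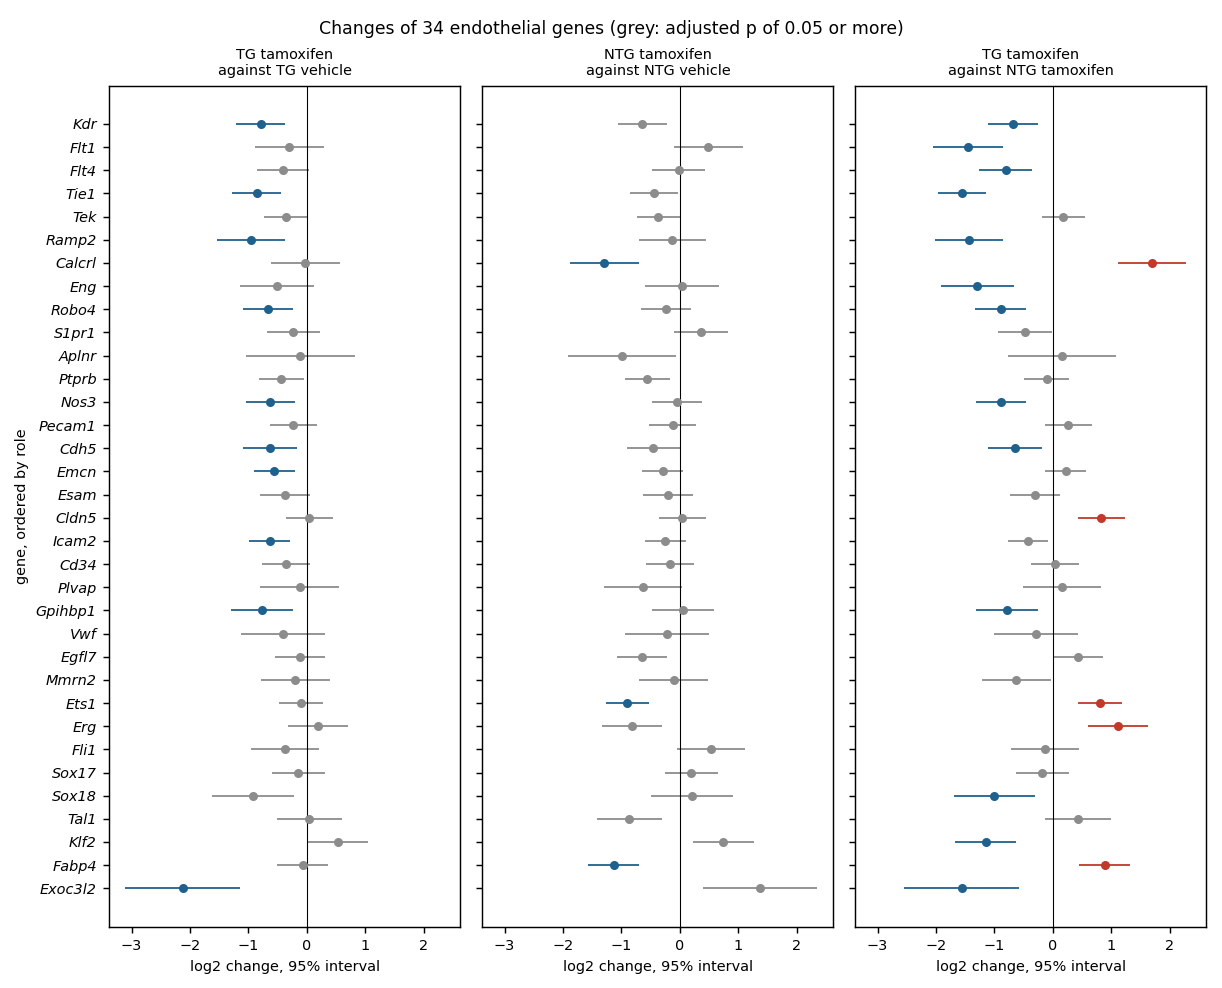
Log2 change of each of the 34 genes with its 95% interval in 3 comparisons (panels); blue is lower and red higher at an adjusted p under 0.05, grey is not called. Blue dominates the left panel with 10 genes, the middle panel has 3 blue genes, and the right panel has 13 blue and 5 red.

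Of the 9 junction and surface genes, 4 were lower in TG tamoxifen than in TG vehicle, where 14.4% of all genes were lower. Cdh5, VE-cadherin of adherens junctions, read 11.97, 12.11 and 11.77 on the TG tamoxifen arrays, 12.28, 12.43 and 13.02 on TG vehicle, 12.45, 12.58 and 12.76 on NTG tamoxifen and 13.17, 13.14 and 12.84 on NTG vehicle arrays. TG tamoxifen arrays were below all others, and TG vehicle overlapped both NTG groups. Cdh5 fell by 0.63 ± 0.21 against TG vehicle (adjusted p = 0.0476) and by 0.65 ± 0.21 against NTG tamoxifen (adjusted p = 0.0288). The call against TG vehicle was close to the threshold and held in 6 of 25 alternatives.

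Icam2, an adhesion molecule for leukocyte integrins, read 12.04, 12.07 and 11.94 on the TG tamoxifen arrays, 12.38, 12.82 and 12.78 on TG vehicle, 12.39, 12.49 and 12.46 on NTG tamoxifen and 12.66, 12.60 and 12.82 on NTG vehicle arrays. It was lowest on the TG tamoxifen arrays and fell by 0.64 ± 0.16 against TG vehicle (adjusted p = 0.0153). Against NTG tamoxifen it was -0.43 ± 0.16, adjusted p = 0.0519. Gpihbp1, which carries lipoprotein lipase to the capillary lumen, read 13.58, 13.63 and 13.85 on the TG tamoxifen arrays, 13.90, 14.55 and 14.92 on TG vehicle, 14.27, 14.66 and 14.50 on NTG tamoxifen and 14.46, 14.21 and 14.61 on NTG vehicle arrays. All TG tamoxifen arrays were below the other 9, the gene falling by 0.77 ± 0.24 against TG vehicle (adjusted p = 0.0385) and by 0.79 ± 0.24 against NTG tamoxifen (adjusted p = 0.0226).

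Emcn, the sialomucin endomucin of capillaries and veins, read 12.88, 12.85 and 12.98 on the TG tamoxifen arrays, 13.33, 13.54 and 13.52 on TG vehicle, 12.48, 12.81 and 12.75 on NTG tamoxifen and 12.82, 12.93 and 13.17 on NTG vehicle arrays. The TG vehicle arrays were the high ones, above all others, and TG tamoxifen overlapped NTG vehicle. Emcn fell by 0.56 ± 0.16 in TG tamoxifen against TG vehicle (adjusted p = 0.0268), while TG tamoxifen and NTG tamoxifen differed by 0.22 ± 0.16, adjusted p = 0.292.

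Cldn5, the claudin of endothelial tight junctions, differed with the genotype. It read 12.03, 12.44 and 12.45 on the TG tamoxifen arrays, 11.96, 12.40 and 12.43 on TG vehicle, 11.59, 11.29 and 11.56 on NTG tamoxifen and 11.41, 11.47 and 11.44 on NTG vehicle arrays. Every TG array was above every NTG array. Cldn5 was higher by 0.82 ± 0.18 in TG vehicle than in NTG vehicle (adjusted p = 0.0387) and by 0.83 ± 0.18 in TG tamoxifen than in NTG tamoxifen (adjusted p = 0.00471), with tamoxifen effects of 0.04 ± 0.18 in TG and 0.04 ± 0.18 in NTG. The array labelled NTG tamoxifen 1 read 11.59, on the NTG side.

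Pecam1, the adhesion molecule CD31, was among the genes that did not pass in any comparison, at -0.23 ± 0.18 in TG tamoxifen against TG vehicle. Neither did Esam, a junction adhesion molecule (-0.37 ± 0.20), Cd34, a surface sialomucin (-0.36 ± 0.19), and Plvap, which forms the diaphragms of fenestrae and caveolae (-0.13 ± 0.31). Their intervals in that comparison were -0.64 to 0.17, -0.80 to 0.06, -0.77 to 0.05 and -0.79 to 0.54, which hold values as low as those of several called genes.

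By the probe sets that stand for them, the secreted and matrix proteins gave no call in any comparison, where 3.63% to 39.5% of all genes changed. Vwf, von Willebrand factor, Egfl7, a secreted regulator of vessel tube formation, and Mmrn2, a matrix multimerin, had changes of -0.40 ± 0.33, -0.12 ± 0.20 and -0.20 ± 0.27 in TG tamoxifen against TG vehicle, with 0 of these 3 at an unadjusted p under 0.05. Egfl7 was lower on all 3 NTG tamoxifen than on all 3 NTG vehicle arrays (-0.65 ± 0.20, adjusted p = 0.0818), and its other probe sets are taken up with the probe sets below.

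None of the 7 transcription factors passed in TG tamoxifen against TG vehicle, where 24.8% of all genes changed. In NTG tamoxifen against NTG vehicle 1, Ets1, passed, where 4.32% of all genes changed. Ets1, a founder of the ETS family, read 12.84, 12.83 and 13.08 on the TG tamoxifen arrays, 13.10, 12.77 and 13.17 on TG vehicle, 12.03, 12.16 and 12.14 on NTG tamoxifen and 12.84, 12.98 and 13.21 on NTG vehicle arrays. The NTG tamoxifen arrays were the low ones and lay below the other 9. Ets1 fell by 0.90 ± 0.17 in NTG tamoxifen against NTG vehicle (adjusted p = 0.0238; 0.0395 without the array labelled NTG tamoxifen 1) and was higher by 0.81 ± 0.17 in TG tamoxifen than in NTG tamoxifen (adjusted p = 0.00339). In TG mice its tamoxifen effect was -0.10 ± 0.17, adjusted p = 0.699. Its probe set may match several transcripts. A second, equally bright probe set (mean level 12.73, against 12.76) gave -0.62 ± 0.22 in NTG tamoxifen against NTG vehicle and 0.56 ± 0.22 in TG tamoxifen against NTG tamoxifen, neither past the threshold over all probe sets (adjusted p = 0.258 and 0.121).

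Erg, an ETS factor of adult endothelium, read 11.68, 11.42 and 11.42 on the TG tamoxifen arrays, 11.56, 10.83 and 11.56 on TG vehicle, 9.98, 10.73 and 10.46 on NTG tamoxifen and 11.26, 11.25 and 11.13 on NTG vehicle arrays. NTG tamoxifen was again below the other 9 arrays. Erg was higher by 1.11 ± 0.24 in TG tamoxifen than in NTG tamoxifen (adjusted p = 0.00373), and -0.82 ± 0.24, adjusted p = 0.073, in NTG tamoxifen against NTG vehicle. Fli1, another ETS factor, passed in no comparison, at -0.38 ± 0.27 and 0.54 ± 0.27 for the tamoxifen effects in TG and NTG.

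Klf2, a factor induced by blood flow, read 13.33, 12.68 and 12.71 on the TG tamoxifen arrays, 12.37, 12.66 and 12.09 on TG vehicle, 14.37, 13.73 and 14.06 on NTG tamoxifen and 13.32, 13.14 and 13.48 on NTG vehicle arrays. The NTG tamoxifen arrays were above all others and TG vehicle below all others. Klf2 fell by 1.15 ± 0.24 in TG tamoxifen against NTG tamoxifen (adjusted p = 0.00321), although both tamoxifen effects were positive without passing, 0.53 ± 0.24, adjusted p = 0.12, in TG and 0.74 ± 0.24, adjusted p = 0.0962, in NTG. TG vehicle against NTG vehicle gave -0.94 ± 0.24, adjusted p = 0.0529, or adjusted p = 0.0348 without the array labelled NTG tamoxifen 1.

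Sox18, a SOXF factor of vessel and lymphatic development, read 11.98, 11.88 and 12.03 on the TG tamoxifen arrays, 12.05, 13.56 and 13.05 on TG vehicle, 12.55, 13.08 and 13.27 on NTG tamoxifen and 12.67, 12.87 and 12.74 on NTG vehicle arrays. TG tamoxifen arrays were below the other 9, TG vehicle 1 only just above them. It fell by 1.0 ± 0.32 against NTG tamoxifen (adjusted p = 0.0274) and narrowly missed the threshold against TG vehicle (-0.92 ± 0.32, adjusted p = 0.055). Its relative Sox17, an arterial factor, and Tal1, a helix-loop-helix factor of blood and vessel cells, passed in no comparison, at -0.15 ± 0.21 and 0.04 ± 0.26 in TG tamoxifen against TG vehicle.

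Fabp4, the fatty acid binding protein of capillary endothelium and fat cells, read 16.99, 17.08 and 17.07 on the TG tamoxifen arrays, 17.38, 16.75 and 17.21 on TG vehicle, 16.04, 16.46 and 15.97 on NTG tamoxifen and 17.17, 17.23 and 17.45 on NTG vehicle arrays. The 3 NTG tamoxifen arrays were below the other 9. Fabp4 fell by 1.13 ± 0.20 in NTG tamoxifen against NTG vehicle (adjusted p = 0.0194, 45.8% of the level; 0.0366 without the array labelled NTG tamoxifen 1), and TG mice showed -0.07 ± 0.20, adjusted p = 0.833, with tamoxifen. It was higher by 0.89 ± 0.20 in TG tamoxifen than in NTG tamoxifen (adjusted p = 0.00484), in all 25 alternatives. Of 6 adipocyte markers, the 4 read by a probe set of 1 symbol (Adipoq, Cidec, Lep, Retn) were below the level needed for testing.

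Exoc3l2, a relative of exocyst subunits that traffic vesicles, had the widest range of the members. It read 9.18, 8.01 and 9.59 on the TG tamoxifen arrays, 10.30, 11.65 and 11.20 on TG vehicle, 10.08, 11.05 and 10.34 on NTG tamoxifen and 9.50, 8.62 and 9.23 on NTG vehicle arrays. TG vehicle and NTG tamoxifen were high, and TG tamoxifen and NTG vehicle were low and overlapped. It fell by 2.12 ± 0.45 in TG tamoxifen against TG vehicle (adjusted p = 0.0078) and was higher by 1.94 ± 0.45 in TG vehicle than in NTG vehicle (adjusted p = 0.0421). Its probe set may match several transcripts, and its other probe set, too dim for the filter, had the opposite sign in both comparisons (+1.61 ± 0.42 with adjusted p = 0.0667, and -2.74 ± 0.42 with 0.0406, where all probe sets were tested), and the direction for this gene is uncertain.

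In NTG tamoxifen against NTG vehicle, 3 of the 34 genes were lower, Calcrl, Fabp4 and Ets1 (8.82%, where 3.66% of all genes were lower), and none was higher (0.654% of all genes higher). Klf2 and Exoc3l2 were the positive ones among 12 members at an unadjusted p under 0.05. NTG tamoxifen lay below NTG vehicle on every array for 14 members and above it for 4, where 17% and 13.2% of all genes did. The median change was -0.21 against -0.01 over all genes, and -0.42 against -0.16 with median centring, which turns the order of the members' medians in TG and NTG mice. Fabp4 and Ets1 remained called without the array labelled NTG tamoxifen 1 (3.03% of all genes lower, 0.725% higher), 5 members (14.7%) were called without NTG tamoxifen 2, where 7.42% of all genes changed. None was called without NTG tamoxifen 3 or NTG vehicle 1, 2 or 3 (0 members, 10 to 14 at an unadjusted p under 0.05, limma), where 0.206%, 0.134%, 0% and 0.0269% of all genes changed. Calls were also lost without both arrays with conflicting labels or all 3 in doubt (0 members, with 12 and 13 at an unadjusted p under 0.05; 0.779% and 0.0806% of all genes changed).

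**Figure D4:**
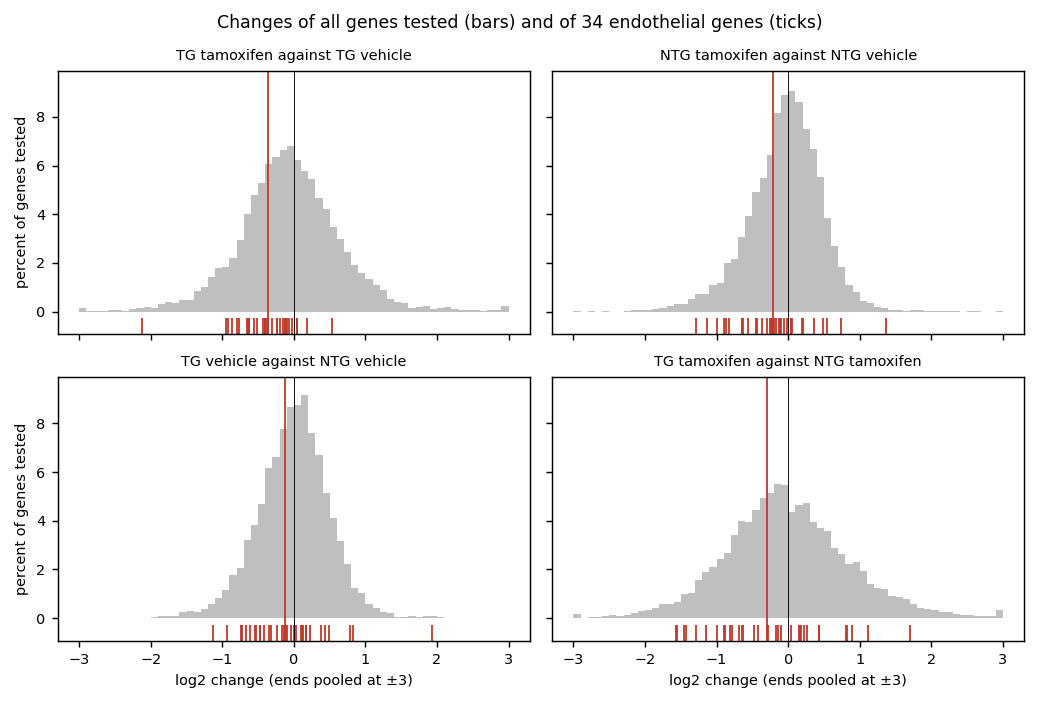
Log2 changes of all 11166 genes tested as grey bars (percent of genes in bins of 0.1 log2 units, ends pooled) and of the 34 endothelial genes as red ticks, in 4 comparisons; the red line is the median of the 34. That median is -0.36, -0.21, -0.12 and -0.29 in the 4 panels.

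TG vehicle against NTG vehicle gave 1 member lower, Tie1 (2.24% of all genes lower), and 2 higher, Cldn5 and Exoc3l2 (1.39% of all genes higher). TG vehicle arrays lay below NTG vehicle for 7 members and above for 3, where 15.4% of all genes did so in each direction. The count of 3 became 4 without the array labelled NTG tamoxifen 1, with Klf2 lower (4.18% of all genes lower, 3.1% higher), and 0 without TG vehicle 3 or NTG vehicle 1, 2 or 3 (7 to 10 at an unadjusted p under 0.05, limma), where 0.0358%, 0.475%, 0.0179% and 0.107% of all genes changed. Median changes were -0.12 for the members and 0.01 for all genes.

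TG tamoxifen against NTG tamoxifen gave the most calls among these comparisons, some of which share arrays, with 13 lower (38.2%, where 20.5% of all genes were lower) and 5 higher (14.7%, where 18.9% were higher). Lower were Kdr, Flt1, Flt4, Tie1, Ramp2, Eng, Robo4, Nos3, Cdh5, Gpihbp1, Sox18, Klf2 and Exoc3l2, and higher were Calcrl, Cldn5, Ets1, Erg and Fabp4. Arrays did not overlap for 16 members in the lower and 8 in the higher direction, where 27% and 24% of all genes did so. The numbers were the same, 13 and 5, without the array labelled NTG tamoxifen 1, where 21.9% and 20.9% of all genes were called. Without Exoc3l2, 12 of 33 genes (36.4%) were lower, and the other probe set of that gene was also negative here (-0.78 ± 0.42). Over 25 alternatives 12 to 20 members were called. The 12 came with TG vehicle 3 counted as tamoxifen, where 27.7% of all genes changed, and the counts of 20 went with 39.8% to 41.9% of all genes, against 39.5% here.

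The tamoxifen effects in TG and NTG mice were compared directly, as TG effect minus NTG effect. Calcrl, Ets1 and Fabp4 were higher, by 1.27 ± 0.38, 0.80 ± 0.24 and 1.06 ± 0.28 (adjusted p = 0.046, 0.046 and 0.0312; 7.5% of all genes higher). Exoc3l2 was lower by 3.50 ± 0.63 (adjusted p = 0.0112; 6.76% of all genes lower). For the 9 other genes that fell in TG mice the difference did not pass, Ramp2 (-0.82 ± 0.37, adjusted p = 0.15) and Gpihbp1 (-0.82 ± 0.34, adjusted p = 0.122) being the largest, so it was not shown that these falls were larger in TG than in NTG mice. Exoc3l2's other probe set gave a difference of the opposite sign (1.97 ± 0.59, adjusted p = 0.139 over all probe sets), and the equally bright second probe set of Ets1 one of 0.34 ± 0.31, adjusted p = 0.616. The other Fabp4 probe sets gave 1.06, 3.15 and -0.51 (limma, adjusted p = 0.231, 0.0598 and 0.707 over all probe sets). The count of 4 was 7 without TG vehicle 1 (3 higher and 4 lower; 20.2% of all genes changed), 3 without the array labelled NTG tamoxifen 1 (Calcrl lost, adjusted p = 0.0592; 11.8% of all genes higher, 11% lower), and 1, Exoc3l2, without any 1 of the TG tamoxifen or NTG vehicle arrays, TG vehicle 2 or NTG tamoxifen 3, where 5.72% to 8.59% of all genes changed.

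By group means, TG tamoxifen was lowest for 18 of 34 genes, NTG tamoxifen for 12, NTG vehicle for 3 and TG vehicle for 1. NTG vehicle was highest for 17, TG vehicle for 8, NTG tamoxifen for 7 and TG tamoxifen for 2. Relative to the NTG vehicle mean, the median over the 34 genes was -0.34, -0.60 and -0.59 on the TG tamoxifen arrays, -0.34, 0.0 and -0.05 on TG vehicle, -0.34, -0.16 and -0.14 on NTG tamoxifen and -0.03, -0.08 and 0.14 on NTG vehicle. TG vehicle 1 thus read as low as TG tamoxifen 1 and as the array labelled NTG tamoxifen 1.

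For 15 genes more than 1 probe set was on the array, 42 probe sets in all, and these did not always move together. All probe sets of a gene had the same sign for 9 of the 15 genes in TG tamoxifen against TG vehicle, 7 in NTG tamoxifen against NTG vehicle, 8 in TG vehicle against NTG vehicle and 9 in TG tamoxifen against NTG tamoxifen. Tested over all 45037 probe sets with no filter, 1 of the 61 member probe sets (1.64%) was lower in TG tamoxifen against TG vehicle, where 1.7% of all probe sets were lower. It stands for Exoc3l2, whose direction is uncertain. In NTG tamoxifen against NTG vehicle 3 (4.92%) were lower, against 0.04% of all, and in TG vehicle against NTG vehicle 1 (1.64%), against 0.0866% of all. The 3 belong to Egfl7 and Fabp4 and the 1 is the dim probe set of Exoc3l2, and none of these stands for its gene. In TG tamoxifen against NTG tamoxifen 10 were lower (16.4%, against 6.51% of all) and 9 higher (14.8%, against 7.17% of all).

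Egfl7, Mmrn2, Fabp4, Cdh5 and Ptprb show such differences, chosen after their values were seen. The probe set that stands for Egfl7 changed by -0.65 in NTG tamoxifen against NTG vehicle, and its other 3 by -1.71, -1.81 and -1.88, the first 2 of these past the threshold over all probe sets (adjusted p = 0.0373 and 0.0295). The same 2 were higher in TG tamoxifen than in NTG tamoxifen (+0.82 and +1.04, limma, adjusted p = 0.0412 and 0.0161). A dimmer Mmrn2 probe set was lower there (-0.84, adjusted p = 0.0283), where its brightest was at -0.63 (adjusted p = 0.213). For Fabp4 in TG tamoxifen against NTG tamoxifen, 3 probe sets were at +0.89, +1.19 and +2.0 and the fourth at -1.42 (adjusted p = 0.0459 over all probe sets), the 1 gene with calls in both directions. Cdh5, lower by its brightest probe set, was +0.33 by the other in TG tamoxifen against NTG tamoxifen. The brightest Ptprb probe set (mean level 13.65) read -0.10 in that comparison. Another, nearly as bright (13.48), read -1.52 and passed the threshold over all probe sets (limma, adjusted p = 0.0069).

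**Figure D5:**
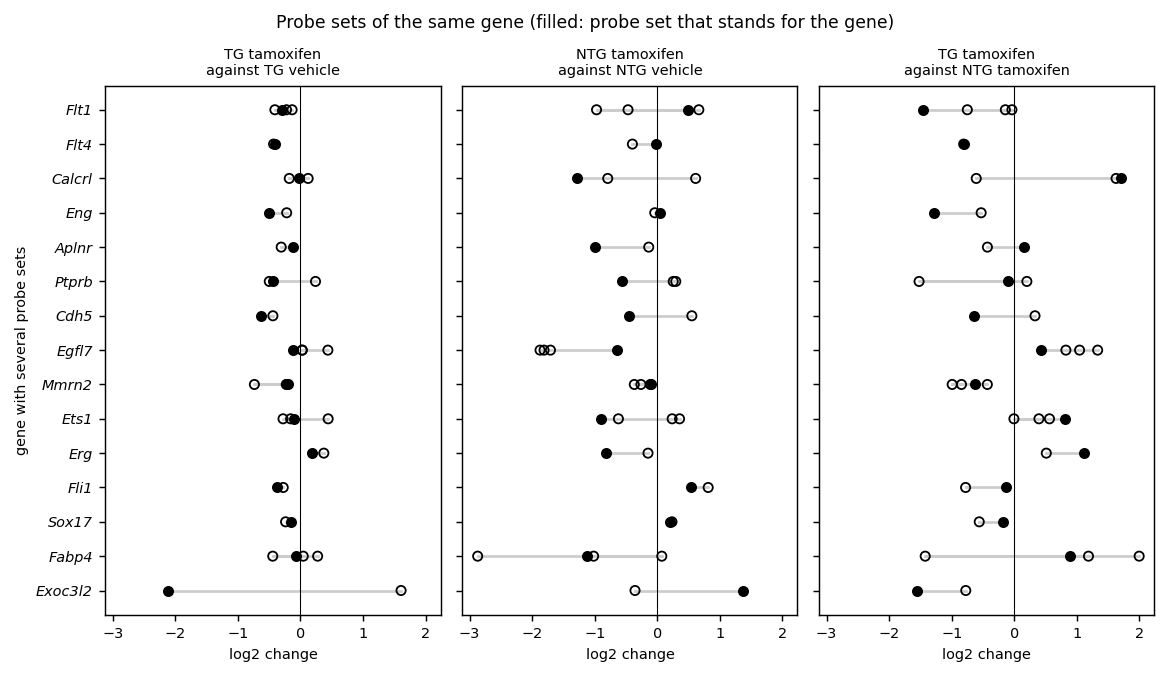
Log2 change of every probe set of the 15 genes with several, in 3 comparisons; filled circles are the probe set that stands for the gene, open circles the others, and grey lines join those of 1 gene. Exoc3l2 in the left panel and Fabp4 in the right panel have probe sets on both sides of 0, while both Flt4 and both Eng probe sets are negative in the left and right panels.

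Other endothelial genes were counted in the same way. Of 43 tested, 12 were lower (27.9%) and 4 higher (9.3%) in TG tamoxifen against TG vehicle, where 14.4% of all genes were lower and 10.4% higher, with a median of -0.38. Lower were the ephrin-B2 receptor of veins, Ephb4 (-1.36 ± 0.29, adjusted p = 0.00841) and Tmem204 (-1.0 ± 0.21, 0.00791), a small membrane protein of vessels. Higher were the leukocyte adhesion molecule Icam1 (1.43 ± 0.23, 0.00282) and the protease inhibitor Ctla2a (1.10 ± 0.21, 0.00543). In NTG mice 3 of the 43 fell (6.98%, where 3.66% of all genes were lower), among them Nrp1, a VEGF co-receptor (-0.98 ± 0.19, adjusted p = 0.0238).

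In TG tamoxifen against TG vehicle, 12.5% of the ligands of these receptors were lower and 6.25% higher, below the 14.4% and 10.4% of all genes. Of 16 tested, Tgfb2 was higher (1.05 ± 0.19, adjusted p = 0.00398) and Vegfb (-1.06 ± 0.24, 0.0110) and Tgfb1 (-0.78 ± 0.22, 0.0268) were lower in TG tamoxifen than in TG vehicle. Vegfb, a ligand of Flt1, was also lower in TG tamoxifen than in NTG tamoxifen (-1.71 ± 0.24, adjusted p = 0.000525). Adm, the gene for adrenomedullin, was higher in TG vehicle than in NTG vehicle (1.09 ± 0.25, adjusted p = 0.0421). Of 12 Notch genes, the ligand Dll4 (-0.78 ± 0.18, adjusted p = 0.0113) and the target Heyl (-1.01 ± 0.17, 0.00307) were lower in TG tamoxifen than in TG vehicle. They make up 16.7% of the 12, near the 14.4% of all genes that were lower.

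Among 14 genes that respond to flow or oxygen, 3 were higher and 4 lower in TG tamoxifen than in TG vehicle (21.4% and 28.6%, against 10.4% and 14.4% of all genes). They include the oxygen-regulated factor Hif1a (1.15 ± 0.18, adjusted p = 0.00265) and the flow-induced Klf6 (0.96 ± 0.20, 0.00819), both higher, and the prolyl hydroxylase Egln1 (-1.0 ± 0.21, 0.00709), lower. Of 9 tested genes of the nitric oxide pathway other than Nos3, 0 passed in that comparison by limma, with 2 at an unadjusted p under 0.05, where 24.8% of all genes changed. Of 9 genes of lipid uptake, Lmf1, a maturation factor of lipases (-0.90 ± 0.26, adjusted p = 0.0266), and the fatty acid transporter Cd36 (-0.62 ± 0.21, 0.0471) were lower. They make up 22.2% of the 9, against 14.4% of all genes.

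Markers of other cell types were read beside the endothelial genes. The summed normalised intensity of the 34 endothelial genes ran from 296800 up to 311100 on TG tamoxifen arrays, from 359200 up to 393300 on TG vehicle arrays, 273200 to 329000 in NTG tamoxifen and 388900 to 446000 in NTG vehicle. Fabp4 is a large part of that sum, and the other 33 genes gave 166600–173400 on TG tamoxifen arrays, 188300–257600 on TG vehicle arrays, 205700–242400 on NTG tamoxifen arrays and 235400–266600 on NTG vehicle arrays, so that without Fabp4 the lowest sums were those of TG tamoxifen. For 7 of 8 macrophage and leukocyte markers the sum was 92870–141100 on TG tamoxifen arrays, 52190–104200 on TG vehicle arrays, 44690–45090 on NTG tamoxifen arrays and 51640–58050 on NTG vehicle arrays. Of these 7, 2, Ptprc (1.40 ± 0.25, adjusted p = 0.00372) and Aif1 (1.34 ± 0.30, 0.00966), were higher in TG tamoxifen than in TG vehicle (28.6%, where 10.4% of all genes were higher). The changes of the 7 were positive for 5 and negative for 2, with a median of 0.39, so the list did not rise as a whole. For 7 of 8 smooth muscle and pericyte markers the sum was 164500–211900 on TG tamoxifen arrays, 187600–216700 on TG vehicle arrays, 124100–178200 on NTG tamoxifen arrays and 270700–321400 on NTG vehicle arrays. Kcnj8 (-0.78 ± 0.16, adjusted p = 0.00693) and Abcc9 (-0.80 ± 0.18, 0.00966) were lower in TG tamoxifen than in TG vehicle (28.6%, where 14.4% of all genes were lower).

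Cardiomyocyte markers gave sums of 2185000–2267000 on TG tamoxifen arrays, 2355000–2452000 on TG vehicle arrays, 2276000–2458000 on NTG tamoxifen arrays and 2452000–2470000 on NTG vehicle arrays. Of the 8, 1, Ryr2, was lower in TG tamoxifen than in TG vehicle (12.5%, where 14.4% of all genes were lower). Fibroblast markers gave 204700–234200 on TG tamoxifen arrays, 235700–272100 on TG vehicle arrays, 150200–194900 on NTG tamoxifen arrays and 191200–221500 on NTG vehicle arrays. Among 8 in TG tamoxifen against TG vehicle, Col3a1 was higher (12.5%, against 10.4% of all genes) and Tcf21 and Dcn were lower (25%, against 14.4%). In NTG tamoxifen against NTG vehicle, beside the falls of Calcrl, Fabp4 and Ets1, the pericyte genes Abcc9 (-1.11 ± 0.18, adjusted p = 0.0151) and Rgs5 (-1.72 ± 0.30, 0.0179) and the fibroblast gene Lum (-1.78 ± 0.20, 0.0151) were lower too. There, 2 of 7 smooth muscle and pericyte markers (28.6%) and 2 of 8 fibroblast markers (25%) were lower, against 3.66% of all genes. Of the 7, 6 changes were negative and 1 positive. The fibroblast markers did not fall together, with 5 positive, 3 negative and a median of 0.01. In the macrophage, smooth muscle, cardiomyocyte and fibroblast lists, Cnn1 of smooth muscle and Itgam of macrophages were too dim to test.

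Red cell and platelet genes were read as well, and few were called. Of 5 erythroid markers, 2 were tested and gave sums of 3847–7580 on TG tamoxifen arrays, 1783–9046 on TG vehicle arrays, 7551–13690 on NTG tamoxifen arrays and 2989–5446 on NTG vehicle arrays, so the NTG groups did not overlap. In NTG tamoxifen against NTG vehicle 0 of 2 passed in limma and 2 had an unadjusted p under 0.05, Slc4a1, an anion exchanger (1.58 ± 0.55, adjusted p = 0.116), and Alas2, an enzyme of haem synthesis (1.39 ± 0.53, 0.146). Of 3 platelet and megakaryocyte markers tested, Itga2b, a platelet integrin subunit, was lower in TG tamoxifen than in TG vehicle (-0.55 ± 0.15, adjusted p = 0.0247), where 14.4% of all genes were lower. The other 2 had positive changes there and were not called, so these markers did not move together. The part of these shifts in the endothelial changes was not tested.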

How the data were processed

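Left ventricles of 12 mice were read on 12 arrays. The deposited values are linear intensities per probe set, scaled by the authors to a 2% trimmed mean shared by all arrays, as the values show. Neither summarisation software nor detection calls are named in the sources used here.

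Array medians spread by 0.363 log2 units, above the 0.2 set as the limit for keeping the authors' scaling, so log2(intensity + 16) was quantile normalised. Of 45101 probe sets, 64 were controls, 34945 had 1 gene symbol, 932 several and 9160 none. The probe set with the highest mean over all arrays stood for each of 18193 genes, and 11166 at or above the 50th percentile of probe sets (intensity 670.3) were tested. One limma 3.58.1 fit in R 4.3.3 took the 4 group means over 12 arrays, with 8 residual degrees of freedom, and p-values were Benjamini-Hochberg adjusted over all genes tested, at a threshold of 0.05. Errors are standard errors with n = 3 arrays a group. The number of arrays limits the precision. The fit was tested on simulated data. Alternatives changed the scaling, offset, filter, probe set rule, model terms and arrays used.

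The members and lists were chosen with earlier results of these data known. All members were accounted for by name, and genes of other lists were named among those past the threshold, up to 4 a list in TG tamoxifen against TG vehicle and up to 2 elsewhere, by smallest adjusted p. Esr1 and Hspa5 were named as checks. Promoter windows came from RefSeq, build GRCm38.p6.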

Additional observations from a re-analysis of the deposited data

Results flagged for a closer look

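For 4 of the 34 genes (11.8%) the tamoxifen effect differed between transgenic and non-transgenic mice by the interaction term of the limma fit. The share over all genes was 14.3%, so the members were not called more often than other genes. Calcrl changed by -0.03 log2 units in TG and -1.29 in NTG mice, a difference of 1.27 (adjusted p = 0.0460), which was 1.19 (0.0592) without the array labelled NTG tamoxifen 1. Ets1 changed by -0.10 in TG and -0.90 in NTG mice, a difference of 0.80 (adjusted p = 0.0460; 0.76 and 0.0499 without that array), but its probe set may match several transcripts and an equally bright second one gave 0.34 ± 0.31 (adjusted p = 0.616 over all probe sets). Fabp4 changed by -0.07 in TG and -1.13 in NTG mice, a difference of 1.06 (adjusted p = 0.0312; 1.0 and 0.0346 without that array). Exoc3l2 changed by -2.12 in TG and 1.37 in NTG mice, a difference of -3.50 (adjusted p = 0.0112; -3.70 and 0.00501 without that array). The other, dim probe set of Exoc3l2 had the opposite signs, 1.61 in TG and -0.36 in NTG mice, a difference of 1.97 ± 0.59 (adjusted p = 0.139 over all probe sets).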

How the results depend on the processing

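Counts of endothelial genes called were recomputed under 25 alternatives (24 for the difference of tamoxifen effects), and of the changes called for single genes 684 kept their direction and call, 254 lost the call and 0 reversed. In TG tamoxifen against TG vehicle the 10 (24.8% of all genes changed) became 4 with median centring (24.4%), 4 with no filter on dim genes (8.82%), 5 from only the groups compared (21.4%), 0 with the beta-actin ratio as covariate, 0 with TG vehicle 3 as tamoxifen, 0 without both arrays with conflicting labels, 1 without all 3 arrays in doubt, and 3 to 14 leaving out each array. In NTG tamoxifen against NTG vehicle the 3 (4.32% of all genes changed) became 8 with median centring (8.81%) and 0 to 5 leaving out each array (0% to 7.42%). It became 0 with no filter, from only the groups compared, with the beta-actin covariate, and without both or all 3 arrays (limma; 10, 13, 11, 12 and 13 at an unadjusted p under 0.05). In that order, 0.022%, 0.188%, 0%, 0.779% and 0.0806% of all genes changed. In TG vehicle against NTG vehicle the 3 (3.63% of all genes changed) became 1 when probe sets were averaged (1.56%) and 0 to 4 leaving out each array (0.0179% to 7.28%). It became 0 with no filter, from only the groups compared, with the beta-actin covariate, with TG vehicle 3 as tamoxifen, and without both or all 3 arrays (10, 9, 6, 5, 9 and 9 unadjusted). In that order, 0.044%, 0.152%, 0%, 0%, 0.0448% and 0.152% of all genes changed. TG tamoxifen against NTG tamoxifen stayed within 12 to 20 around 18, and at 14 to 20 leaving out each array. Of all genes, 39.5% changed in the main fit, 20.2% to 42.9% over the alternatives and 30.4% to 42.9% leaving out each array. For the difference of tamoxifen effects the 4 (14.3% of all genes changed) became 1 with no filter (1.98%) and 2 when probe sets were averaged (10.8%). It became 0 with the beta-actin covariate, with TG vehicle 3 as tamoxifen and without both arrays (1, 7 and 6 unadjusted; 0%, 0% and 0.582% of all genes). It was 1 without all 3 (12.9%), and 1 to 7 leaving out each array (5.72% to 22.8%). Leaving out all 3 arrays in doubt was chosen after seeing the data. Beyond fewer arrays or more genes tested, the cause was not tested. Median centring moved the median of all genes to -0.16 in NTG tamoxifen against NTG vehicle, -0.12 in TG vehicle against NTG vehicle and 0.19 for the difference. It moved the members' median for the difference to 0.19 against -0.19, since their medians became -0.19 in TG and -0.42 in NTG mice.

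Replicate numbers did not pair the arrays: deviations of arrays with the same number correlated at -0.087 to 0.0919, 0 of 18 pairs over 0.1, and 6 correlated best with their own number. With the replicate block the counts were 10, 2, 1, 19 and 1 in the order above, where 22.1%, 1.28%, 0.815%, 37.9% and 11.9% of all genes changed.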
